A study of Mus musculus with 21 samples.

Results

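Transcripts of 10 potassium channel subunit genes were examined in AGRP and POMC neurons of the hypothalamic arcuate nucleus. The genes were taken by symbol from the deposited count and TPM tables of 35266 genes: the SK subunits *Kcnn1*, *Kcnn2*, *Kcnn3* and *Kcnn4*, the BK pore *Kcnma1* with its accessory subunit *Kcnmb4*, and the KATP pores *Kcnj8* and *Kcnj11* with the sulfonylurea receptors *Abcc8* and *Abcc9*. Each of the 21 RNA-Seq libraries held 44 to 214 GFP-labeled neurons that were hand-sorted from 1 male mouse on a C57BL/6J background, aged 46 to 56 days. AGRP neurons came from NPY-hrGFP mice, where an *Npy* reporter marks the cells, and POMC neurons from mice labelled Pomc-GFP, a line whose reporter the study's methods call topazFP, so cell type and reporter strain cannot be told apart. Every mouse was moved to a clean cage 24 hr beforehand. Fed mice kept free access to food (AGRP, n = 5; POMC, n = 5), and 24-hr food-deprived (FD) mice had water alone (AGRP, n = 6; POMC, n = 5).

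All 3 channel families let potassium leave the cell, and each is gated by a signal that follows activity or metabolism. SK channels open when calcium binds the calmodulin held on the channel, and they slow firing after a burst of spikes. BK channels open with calcium and depolarization together, and accessory beta subunits set their kinetics and pharmacology. KATP channels, made of an inward rectifier pore and a sulfonylurea receptor, close as ATP rises, and in arcuate neurons they are known for coupling glucose, leptin and insulin to excitability.

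Gene counts per library ranged from 9822298 to 37663979, so 3 counts, used here as the floor of detection, corresponded to 0.0797 to 0.305 CPM (counts scaled to library size). Cell type labels matched the neuropeptides. *Agrp* differed between AGRP and POMC neurons of fed mice by 7.69 on the log2 scale and *Pomc* by −8.74. Summed TPM over 3 neuron markers was 2146 to 4847 in every library. The 8 mural cell markers summed to 1.42 to 46.7 TPM, and no list of endothelial, microglia, astrocyte, oligodendrocyte or tanycyte markers summed to more than 23.1 TPM in a library. Libraries also differed in the amount of spike-in RNA added (a fixed 1 µl in 8 libraries, a fixed 10 µl in 6, and a volume scaled to the cell number in 7). AGRP FD replicate 2 fitted both the 1 µl and the scaled definition and was placed with the scaled set. Differences within these 3 spike-in sets are given beside the pooled ones for every subunit call between 2 groups and for some other comparisons.

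Averaged over all libraries, *Kcnn3* and *Kcnma1* were the most abundant subunit transcripts, and *Kcnn1*, *Kcnn4*, *Kcnj8* and *Abcc9* were near or below detection. Mean *Kcnma1* lay between 44.0 and 47.9 TPM in all 4 groups. Mean *Kcnn3* was 43.2 to 49.6 TPM in 3 groups and 13.3 TPM in AGRP neurons of FD mice. *Kcnmb4* (5.31 to 25.9 TPM), *Kcnj11* (1.54 to 18.1 TPM), *Abcc8* (7.73 to 14.3 TPM) and *Kcnn2* (0.760 to 9.19 TPM) were intermediate. In AGRP neurons of FD mice mean *Kcnmb4* (25.9 TPM) exceeded mean *Kcnn3* (13.3 TPM). Of the 10 genes, 8 passed the expression filter of more than 1 CPM in at least 3 libraries, and *Kcnn4* and *Kcnj8* did not.

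**Figure D1:**
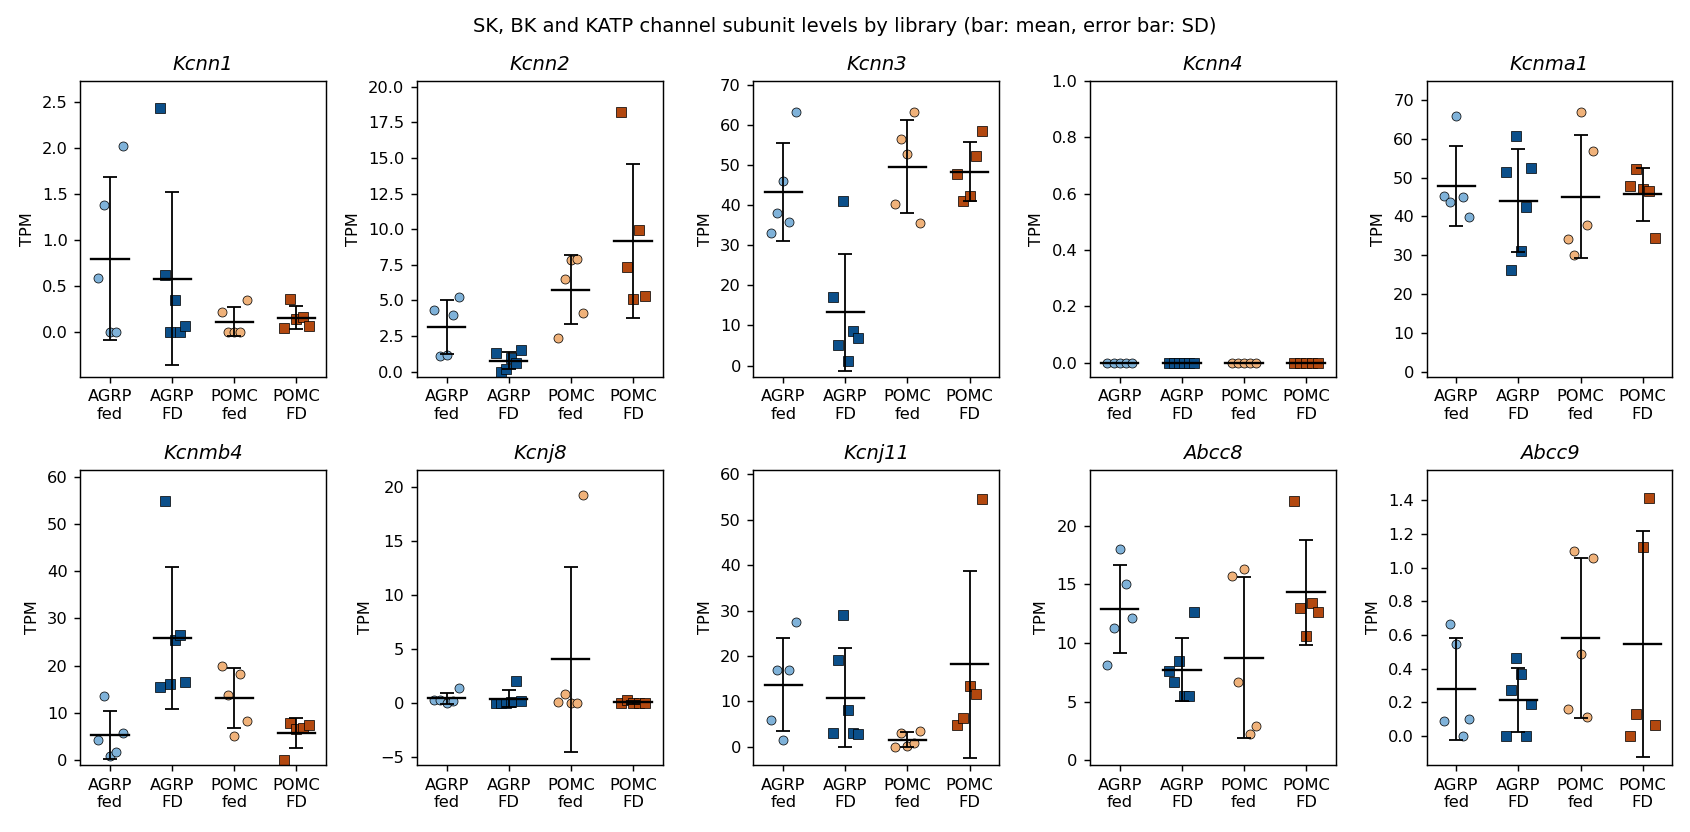
TPM of each of the 10 subunit genes (vertical axes, linear and scaled per gene) in the 4 groups. Points are libraries of 1 mouse each, horizontal bars are group means and error bars are SD. *Kcnn3* is low in 5 of the 6 AGRP FD libraries, *Kcnmb4* is higher in all 6 AGRP FD libraries than in any AGRP fed library, and *Kcnma1* has means of 44.0 to 47.9 TPM.

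Food deprivation changed 2 of the 8 tested subunits in AGRP neurons at q under 0.05 in edgeR's quasi-likelihood test, *Kcnmb4* upward and *Kcnn3* downward. The background was 10.3% of 16513 tested genes, 5.87% higher and 4.43% lower. In POMC neurons 0 of 8 subunits passed, against a background of 0.375%. There, 1 subunit (*Kcnj11*) had an unadjusted p under 0.05, limma-voom also called 0 and DESeq2 called 1 (*Kcnj11*). Between AGRP and POMC neurons of fed mice 0 of 8 passed, where 7.57% of all genes did. The same gene, *Kcnj11*, had an unadjusted p under 0.05, with 0 calls by limma-voom and 1 by DESeq2. Between the cell types of FD mice 3 of 8 passed, *Kcnmb4* higher and *Kcnn2* and *Kcnn3* lower in AGRP neurons, against 18.6% of all genes (9.28% higher and 9.27% lower). The response to deprivation itself differed between the cell types for 1 of 8 (*Kcnmb4*), against 6.71% (4.08% in the upward direction). The comparisons share libraries, so these counts are not independent. The median log2 change of the 8 subunits was −0.22 in AGRP and 0.13 in POMC neurons, beside −0.02 and −0.02 for all tested genes. When libraries were scaled to spike-in RNA per sorted cell, no subunit passed in AGRP FD against fed, in FD AGRP against POMC or in the interaction, and calls over all genes in these comparisons fell to 97, 1117 and 119.

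**Figure D2:**
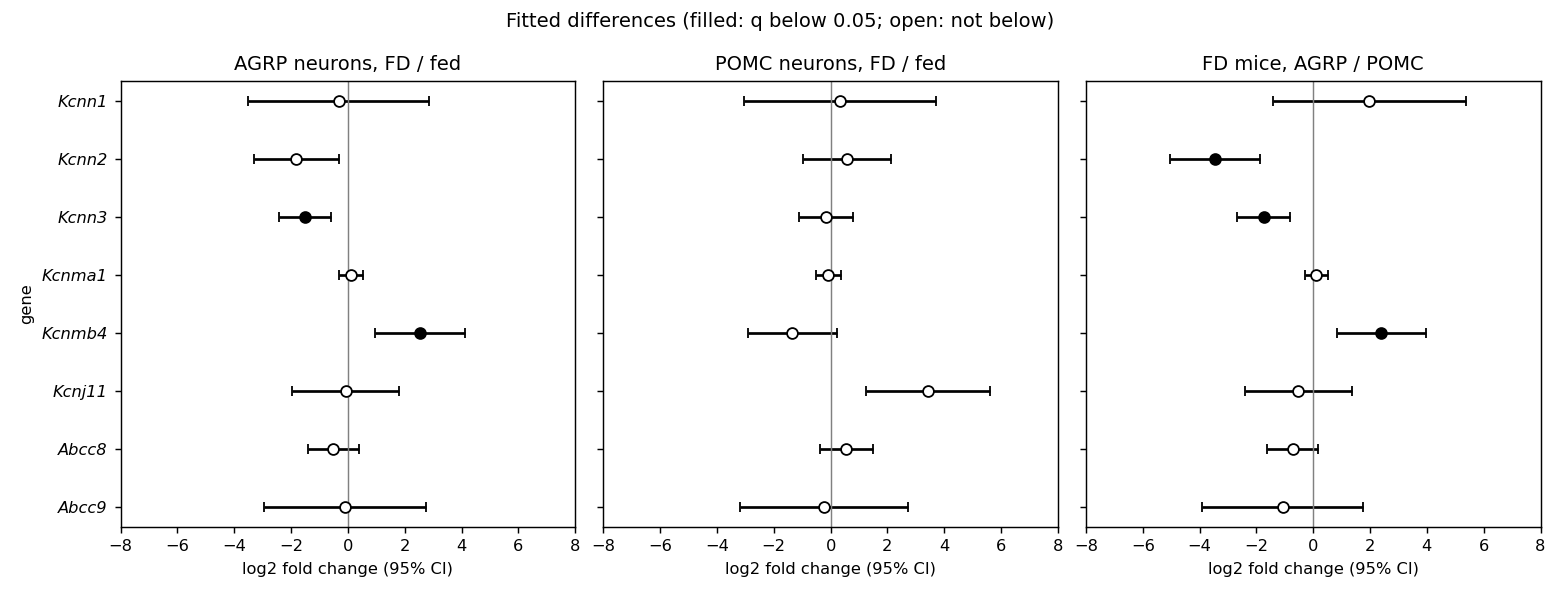
Fitted log2 fold change (horizontal axis) of the 8 tested subunits in 3 comparisons, with 95% confidence intervals, filled where q was under 0.05. *Kcnmb4* and *Kcnn3* are filled in AGRP FD/fed, none in POMC FD/fed, and *Kcnn2*, *Kcnn3* and *Kcnmb4* in FD AGRP/POMC. The *Kcnn3* difference in FD AGRP/POMC changed sign to 0.36 under spike-in scaling, where the median of all genes was 1.10.

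*Kcnn3*, which encodes an SK channel pore subunit, was the main SK transcript of both neuron types and fell in AGRP neurons of FD mice. The gene lies on the plus strand of chromosome 3 (mm10, 89520164 to 89667761). The 250 bases before its start are shown because the gene's transcript level changed, taken from RefSeq on GRCm38.p6 (chr3:89519914-89520163, plus strand), with a TATAA and a CCAAT motif in capitals.
Kcnn3 upstream: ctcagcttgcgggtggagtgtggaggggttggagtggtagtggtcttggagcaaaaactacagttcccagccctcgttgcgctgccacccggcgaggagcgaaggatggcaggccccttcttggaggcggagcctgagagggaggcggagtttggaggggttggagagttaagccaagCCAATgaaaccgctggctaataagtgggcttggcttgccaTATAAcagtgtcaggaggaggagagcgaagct
Both strands were searched for the TATA box (TATAA), the CCAAT box (CCAAT), the GC box (GGGCGG), the core of a cAMP response element (TGACG), an E-box (CACGTG), a FOXO site (TGTTTAC) and an AP-1 site (TGAGTCA), and the matches did not overlap. TATAA began 32 bases before the start and was present in 22.8% of 32851 RefSeq windows of this length. CCAAT began 72 bases before the start and was present in 33.8%. The other 5 motifs gave no match in these letters.

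In AGRP neurons of fed mice, *Kcnn3* measured 33.1, 38.0, 45.9, 35.7 and 63.4 TPM in replicates 1 to 5. In the 6 AGRP FD libraries the lowest was 1.21, the median 7.68 and the highest 40.9 TPM. Of these, 5 libraries at 17.0 TPM or less lay under every fed library, and replicate 3 alone lay within the fed range. The log2 fold change was −1.51 (SE 0.45, 95% CI −2.44 to −0.59, q = 0.0286), and without AGRP FD replicate 3 it was −2.32 (q = 0.00017). Of 9 alternative settings besides leaving out 1 library, 7 kept the call, limma-voom and DESeq2 among them. The call was lost when any of AGRP fed replicates 3 and 5 or AGRP FD replicates 2, 5 and 6 was left out (log2 −1.33 to −1.495, q 0.0565 to 0.0800), with the 2 AGRP groups fitted alone (q = 0.0847), and with spike-in scaling (log2 −0.82, q = 1). Within the spike-in sets the log2 ratio was −1.60 (1 FD and 1 fed library), −3.05 (2 and 2) and −1.03 (3 and 2). In these sorted pools, fewer cells expressing a gene and less RNA per cell cannot be told apart. Summed neuron markers did not overlap, at 2146 to 2528 TPM in AGRP fed and 2872 to 4847 in AGRP FD libraries. Most of this sum was *Snap25*, which was called (log2 1.06, q = 9.56e-06). The other neuron markers had lower medians in AGRP FD than in AGRP fed, *Syt1* at 82.2 against 116 TPM and *Rbfox3* at 14.4 against 18.8 TPM. Of 5 astrocyte markers *Aldh1l1* was called (5.91, q = 0.0284), whereas the median log2 change of that list was −0.38. Their part in the subunit changes was not tested.

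*Kcnn3* in POMC neurons was 40.2, 56.4, 52.8, 63.2 and 35.5 TPM in fed mice and 47.7, 40.9, 42.3, 52.3 and 58.6 TPM in FD mice. The groups overlapped, with a log2 change of −0.16 (95% CI −1.12 to 0.80, q = 0.942). AGRP and POMC neurons of fed mice also overlapped (log2 −0.39, 95% CI −1.34 to 0.57, q = 0.744). In FD mice the groups overlapped through AGRP FD replicate 3, and *Kcnn3* was lower in AGRP than in POMC neurons by TMM scaling (log2 −1.74, SE 0.46, q = 0.00642), in all 11 fits that left out 1 library, and in the 2 spike-in sets with both cell types (−2.12 and −3.48), whereas with spike-in scaling per cell it was 0.36 beside a median of 1.10 over all genes. The difference between the responses was −1.35 (95% CI −2.68 to −0.02, q = 0.240). It reached q = 0.0138 in limma-voom and q = 0.0114 (log2 −2.16) without AGRP FD replicate 3. From high to low, the order of means was POMC fed (49.6 ± 11.5 TPM, SD, n = 5), POMC FD (48.3 ± 7.30, n = 5), AGRP fed (43.2 ± 12.2, n = 5) and AGRP FD (13.3 ± 14.5, n = 6), and the first 3 lay within each other's spread.

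*Kcnn2*, another SK pore subunit, was lower in AGRP than in POMC neurons of FD mice. The 5 AGRP fed libraries held 4.29, 1.07, 1.18, 3.95 and 5.20 TPM. The AGRP FD libraries ranged from 0 to 1.53 TPM with a median of 0.760. POMC neurons held 2.37, 6.52, 7.85, 7.91 and 4.08 TPM in fed mice and 18.2, 7.38, 5.10, 9.93 and 5.32 TPM in FD mice. All POMC FD libraries lay above all AGRP FD libraries, and 11.4% of all genes separated these groups without overlap. The log2 difference was −3.45 (SE 0.77, 95% CI −5.03 to −1.86, q = 0.00152), which held in all 11 fits without 1 library and was −3.29 and −2.09 in the 2 shared spike-in sets. With spike-in scaling it was −2.78 (q = 0.119). Deprivation in AGRP neurons gave a log2 change of −1.81 (SE 0.74, q = 0.126; DESeq2 q = 0.0408) with overlapping groups, and the within-set values were −1.99, 0.28 and −2.32. In POMC neurons it was 0.58 (95% CI −0.96 to 2.12, q = 0.836), between fed cell types −1.05 (q = 0.511), and the difference between responses −2.40 (q = 0.190). A gene on the opposite strand, *A330093E20Rik*, shares 284 exonic bases with *Kcnn2* and had 0 to 87 counts per library. Its mean raw CPM was 0.041 in AGRP FD, 1.03 in AGRP fed, 0.875 in POMC FD and 1.18 in POMC fed, so it was lower in AGRP FD, as *Kcnn2* was. Reads were counted without strand, and those fitting both genes were left out as ambiguous. The counts given for *A330093E20Rik* are therefore not in the *Kcnn2* count. Any other part of this gene in the *Kcnn2* values was not tested.

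*Kcnn1* and *Kcnn4*, the remaining SK family genes, contributed little. *Kcnn1* was at or below the floor of 3 counts in 11 of 21 libraries and did not exceed 2.44 TPM, and none of its comparisons had a q under 0.457. *Kcnn4*, the intermediate conductance member of the family, had 0 counts in all 21 libraries, which allows up to 0.305 CPM in the shallowest. Summed over the family, SK transcripts measured 47.2 ± 13.5 TPM in AGRP fed, 14.6 ± 14.4 in AGRP FD, 55.5 ± 13.5 in POMC fed and 57.7 ± 8.87 in POMC FD (SD). *Kcnn3* made up 91.7%, 82.3%, 89.7% and 84.2% of these sums on average. The lowest share was 48.4%, in an AGRP FD library whose SK sum was 2.50 TPM.

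**Figure D3:**
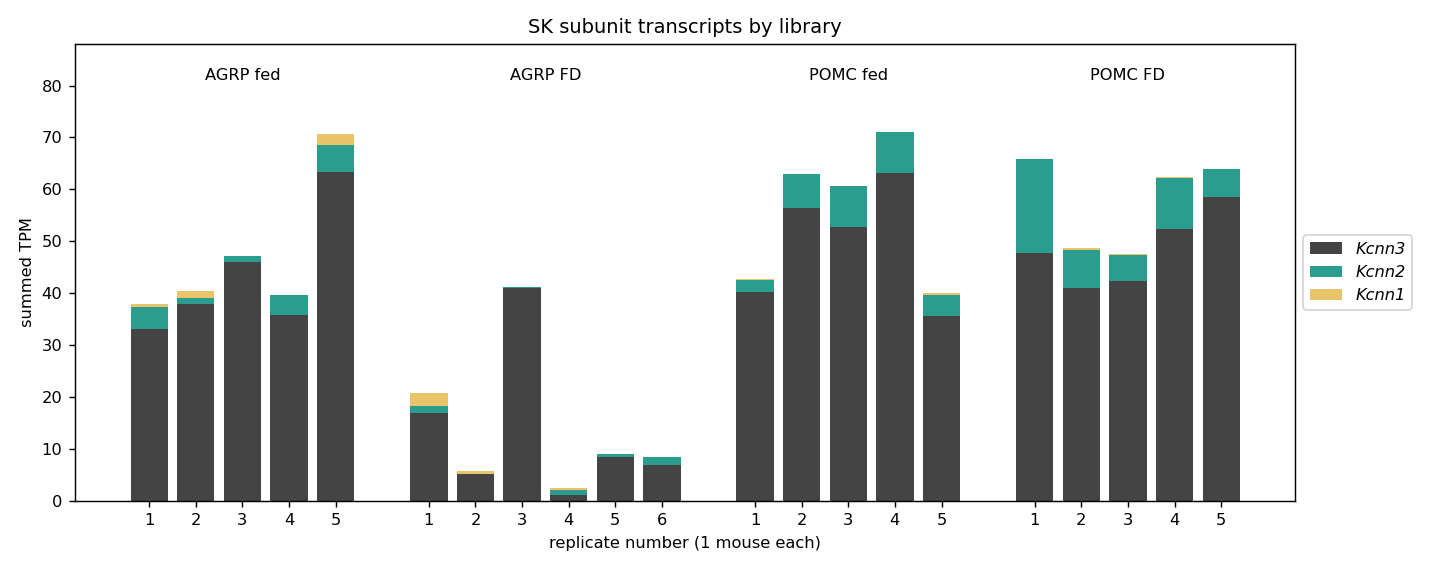
Summed TPM of the detected SK subunits (vertical axis) in each library, by group and replicate number, with *Kcnn3*, *Kcnn2* and *Kcnn1* stacked. The sums average 47.2, 14.6, 55.5 and 57.7 TPM in AGRP fed, AGRP FD, POMC fed and POMC FD, and AGRP FD replicate 3 stands at 41.1 TPM.

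The BK channel subunits behaved differently from each other. *Kcnma1*, the pore-forming alpha subunit (chromosome 14, minus strand, 23289431 to 24004859), measured 45.1, 43.7, 65.8, 44.9 and 39.7 TPM in AGRP fed libraries, and 26.2, 46.9 and 60.6 TPM as the lowest, median and highest of AGRP FD. POMC fed libraries held 34.1, 30.0, 66.8, 37.7 and 56.8 TPM and POMC FD libraries 47.9, 52.3, 47.1, 46.6 and 34.3 TPM. The ranges of all 4 groups overlapped. Its log2 differences were 0.11 (95% CI −0.31 to 0.52) for deprivation in AGRP neurons, −0.08 (−0.51 to 0.36) in POMC neurons, −0.08 (−0.51 to 0.36) between fed cell types and 0.11 (−0.31 to 0.52) between FD cell types, and no q was under 0.781. The genes *A830039N20Rik* and *Gm29626* overlap the *Kcnma1* locus, and their reads could not be separated by strand. *A830039N20Rik* had 291 to 1421 counts per library. Its mean raw CPM was 34.2 in AGRP FD, 36.9 in AGRP fed, 39.1 in POMC FD and 43.7 in POMC fed. *Gm29626* had 0 to 21 counts. Neither gene is in the Gencode M21 annotation, so exonic bases shared with *Kcnma1* were not measured. Reads fitting *Kcnma1* and either of them were left out as ambiguous, so the counts given are not in the *Kcnma1* count. Any other part of these genes in the *Kcnma1* values was not tested.

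*Kcnmb4*, the neuronal beta4 accessory subunit (chromosome 10, minus strand, 116417861 to 116473878), rose in AGRP neurons with food deprivation. It measured 4.31, 13.7, 0.953, 1.73 and 5.86 TPM in AGRP fed libraries. In AGRP FD libraries the lowest, median and highest were 15.6, 21.1 and 54.9 TPM. The groups did not overlap, which held for 7.65% of all genes. The log2 fold change was 2.53 (SE 0.77, 95% CI 0.95 to 4.11, q = 0.0324), and within the spike-in sets the log2 ratio was 2.59, 1.63 and 2.84. The call was lost in 6 of 11 fits without 1 library, those omitting AGRP fed replicates 1, 3, 4 or 5 or AGRP FD replicates 2 or 4 (log2 2.13 to 2.56, q 0.0520 to 0.0970). It was also lost when the cell number was added as a covariate (q = 0.0537) and with spike-in scaling (log2 2.59, q = 0.498). Mean normalized CPM was 2.13 in AGRP fed and 12.3 in AGRP FD.

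*Kcnmb4* in POMC neurons was 19.9, 13.9, 5.08, 18.3 and 8.22 TPM in fed mice and 0.129, 7.82, 6.62, 6.82 and 7.44 TPM in FD mice. The lowest value, in POMC FD replicate 1, rested on 1 count. The log2 change was −1.35 (SE 0.76, 95% CI −2.91 to 0.21, q = 0.499). The responses of the cell types differed by 3.88 (SE 1.08, 95% CI 1.67 to 6.09, q = 0.0261). This q was 0.0502 without AGRP fed replicate 4, 0.0570 without AGRP FD replicate 2 and 0.0924 with spike-in scaling. In fed mice AGRP neurons were 1.48 below POMC neurons on the log2 scale, with overlapping groups and q = 0.298. In FD mice *Kcnmb4* was higher in AGRP neurons (log2 2.40, SE 0.77, q = 0.0267) with no overlap, and the 2 shared spike-in sets gave 2.36 and 1.69. There the q was 0.0815 without AGRP FD replicate 2, 0.0621 with the spike-in set as a block and 0.0549 with spike-in scaling. The order of means was AGRP FD (25.9 ± 15.0 TPM), POMC fed (13.1 ± 6.35), POMC FD (5.76 ± 3.19) and AGRP fed (5.31 ± 5.08), and the ranges of neighbouring groups in this order overlapped.

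Antisense genes *Kcnmb4os1* and *Kcnmb4os2* overlap *Kcnmb4*, sharing 355 and 693 exonic bases with it in Gencode M21. They had up to 23 and 160 counts per library. Mean raw CPM of *Kcnmb4os2* was 1.63 in AGRP FD and 0.282 in AGRP fed, the direction of *Kcnmb4*, whereas in POMC neurons it was 0.697 in FD and 0.467 in fed mice, opposite to *Kcnmb4*. Reads fitting both an antisense gene and *Kcnmb4* were left out as ambiguous, so the antisense counts given are not in the *Kcnmb4* count. Any other part of antisense reads in the *Kcnmb4* values was not tested. Per library, *Kcnmb4* TPM divided by *Kcnma1* TPM averaged 0.122 ± 0.119 in AGRP fed, 0.737 ± 0.699 in AGRP FD, 0.350 ± 0.225 in POMC fed and 0.131 ± 0.0782 in POMC FD (SD). The highest ratio, 2.09, came from AGRP FD replicate 2, the library with 50 sorted cells.

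**Figure D4:**
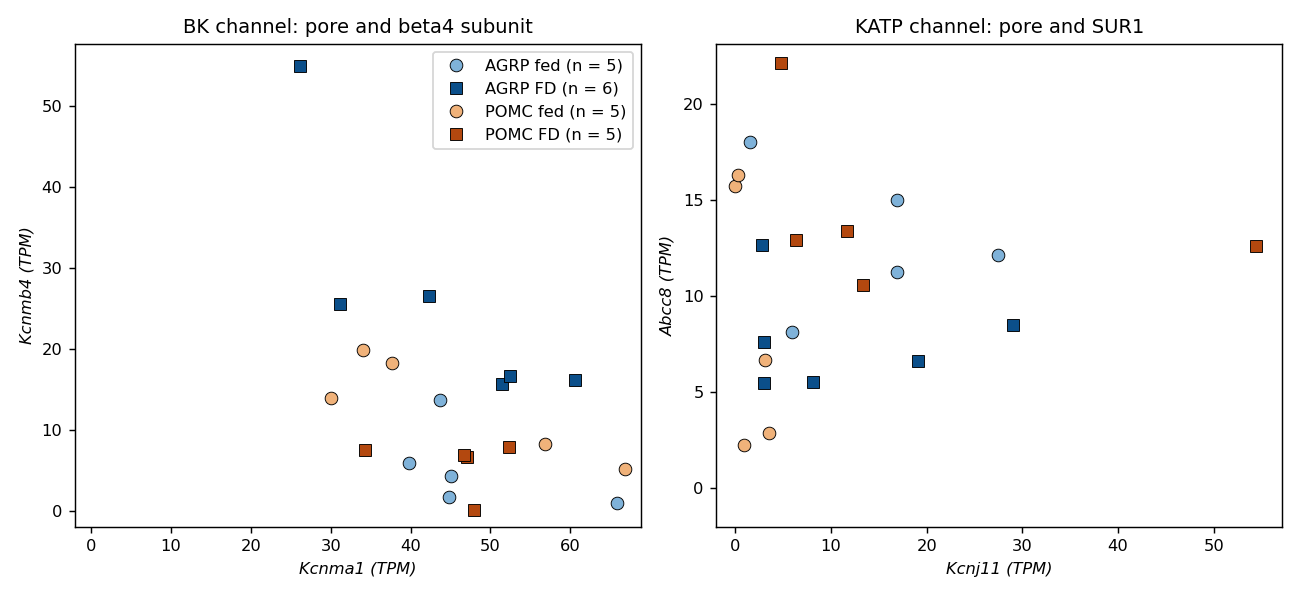
TPM of accessory subunit (vertical axes) against pore (horizontal axes) in each library, for *Kcnmb4* and *Kcnma1* (left) and *Abcc8* and *Kcnj11* (right), with symbols by group. On the left, AGRP FD libraries sit between 15.6 and 54.9 TPM of *Kcnmb4* and AGRP fed libraries between 0.953 and 13.7. On the right, POMC fed libraries hold at most 3.54 TPM of *Kcnj11* and 1 POMC FD library reaches 54.5.

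The KATP transcripts were *Kcnj11* and *Abcc8*, the pairing found in neurons and pancreatic beta cells, and neither passed q under 0.05 in any comparison by edgeR without a replicate block or by limma-voom, whereas DESeq2 called *Kcnj11* in 2 of them. Both genes lie on the minus strand of chromosome 7, with counted loci 4.63 kb apart, *Kcnj11* at 46098725 to 46099897 and *Abcc8* at 46104523 to 46180033. Gencode M21 extends *Kcnj11* to 46100764, nearer to *Abcc8*. The counted *Kcnj11* locus spans 1173 bases, whereas Gencode M21 gives the gene 6812, so most of that annotated span was not counted. *Kcnj11*, which encodes the pore, varied widely, with a coefficient of variation of 119% over the 21 libraries. Its values were 5.88, 16.9, 1.48, 16.9 and 27.5 TPM in AGRP fed and 2.80, 5.52 and 29.0 TPM (lowest, median, highest) in AGRP FD libraries. POMC fed libraries held 0, 3.04, 0.223, 0.888 and 3.54 TPM and POMC FD libraries 4.80, 6.35, 13.4, 11.6 and 54.5 TPM. The POMC groups did not overlap, which held for 2.35% of all genes.

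The *Kcnj11* log2 difference between POMC FD and fed was 3.44 (SE 1.07, 95% CI 1.25 to 5.62, q = 0.144), and DESeq2 gave q = 0.0161. In the only spike-in set holding both POMC groups it was 1.69 (3 and 3 libraries). The means there were 2.87 (FD) and 0.543 (fed) normalized CPM, and 0.5 was added to each, which shrinks the ratio. In POMC fed mice 2 of 5 libraries were at or below 3 counts of *Kcnj11*. In AGRP neurons the change was −0.08 (95% CI −1.97 to 1.81, q = 0.981). Between fed cell types AGRP was 2.99 above POMC (SE 1.05, q = 0.0823; DESeq2 q = 0.0164), between FD cell types the value was −0.53 (q = 0.761), and the difference between responses was −3.52 (SE 1.37, q = 0.130).

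*Abcc8*, which encodes the sulfonylurea receptor SUR1, measured 8.12, 11.3, 18.0, 15.0 and 12.1 TPM in AGRP fed libraries and 5.49, 7.12 and 12.6 TPM (lowest, median, highest) in AGRP FD. POMC fed libraries held 15.7, 6.66, 16.3, 2.24 and 2.90 TPM and POMC FD libraries 22.1, 12.9, 10.6, 13.4 and 12.6 TPM. Groups overlapped in all 4 comparisons. The log2 change with deprivation was −0.51 (95% CI −1.40 to 0.38, q = 0.549) in AGRP and 0.55 (95% CI −0.38 to 1.48, q = 0.694) in POMC neurons. Across fed cell types it was 0.33 (q = 0.780), across FD cell types −0.73 (q = 0.272), and the responses differed by −1.06 (95% CI −2.34 to 0.23, q = 0.368).

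*Kcnj8* and *Abcc9* encode the pore and receptor of the KATP channel best known from vascular mural cells, and they are neighbours on the minus strand of chromosome 6, 16.5 kb apart. *Abcc9* did not exceed 1.41 TPM, had 3 counts or fewer in 5 of 21 libraries and gave no q under 0.661. *Kcnj8* had 3 counts or fewer in 15 of 21 libraries, and 10 of these had 0. The other 6 libraries held 4, 4, 16, 17, 29 and 244 counts, the highest of them (19.3 TPM) in POMC fed replicate 5. In that library the 8 mural markers summed to 10.0 TPM, 4 of them were at 0, and *Abcc9* was 1.06 TPM. In AGRP FD replicate 5, where the mural sum was highest at 46.7 TPM, *Kcnj8* was 2.00 and *Abcc9* 0 TPM. Of that sum *Higd1b* alone gave 39.2 TPM, and 3 of the 8 markers were at 0. Averaged over libraries, *Abcc8* made up 90.1% to 97.9% of receptor TPM in the 4 groups. *Kcnj11* made up 97.6%, 91.9% and 99.1% of pore TPM in AGRP fed, AGRP FD and POMC FD, and 58.9% in POMC fed, where single libraries ranged from 0% to 100%.

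Genes that act on these channels were read from lists of known partners and inputs. Of the 9 SK partner genes (calmodulins, casein kinase and phosphatase subunits bound to the channel), 1 rose in AGRP neurons of FD mice, beside 5.87% of all genes, and none fell. This was *Ppp2ca*, the catalytic subunit of a protein phosphatase (log2 0.56, q = 0.0433), whose response also differed between cell types (0.94, q = 0.0235). In fed mice *Calm2* (−0.56, q = 0.0201) and *Calm3* (−0.62, q = 0.0248) were lower in AGRP than in POMC neurons, beside 7.57% of all genes called in either direction, and in FD mice 0 of 9 passed, beside 18.6%. The median of the list in AGRP FD against fed was 0.16.

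Of 11 further BK accessory and related Slo genes, 8 were tested and 0 passed in either FD against fed comparison. All tested genes passed at 10.3% in AGRP and 0.375% in POMC neurons. Between the cell types, 1 of the 8 was higher and 2 were lower in AGRP neurons in fed and again in FD mice, beside 7.57% and 18.6% of all genes. *Kcnt1*, a sodium-activated potassium channel, was higher in AGRP than POMC neurons in fed (1.52, q = 0.000184) and FD mice (1.11, q = 0.00192). *Lingo1*, a BK-associated membrane protein, was lower in both (−1.43, q = 0.00602; −0.997, q = 0.0267). *Lrrc55*, a BK gamma subunit, was lower in fed mice (−1.39, q = 0.00132), and *Kcnt2* in FD mice (−1.55, q = 0.0405).

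Among 11 KATP gating inputs, 2 rose in AGRP neurons of FD mice, beside 5.87% of all genes, and none fell. *Pik3r1*, a regulatory subunit of PI3-kinase, rose by 1.29 (q = 0.000342), and *Pip5k1b*, which makes the phosphoinositide that opens the channel, by 2.22 (q = 0.00788). *Ucp2*, a mitochondrial uncoupling protein, was higher in AGRP than in POMC neurons in fed (2.30, q = 4.01e-10) and FD mice (2.06, q = 1.25e-09). *Ckb*, brain creatine kinase, was lower in AGRP neurons of fed mice (−0.998, q = 0.000335), as was *Pik3r1* (−0.82, q = 0.0282). The response of *Ckb* differed between the cell types by 1.05 (q = 0.00966).

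Of 14 calcium channel and store-release genes, 2 rose and 2 fell in AGRP neurons of FD mice, beside 5.87% and 4.43% of all genes. *Cacna1i*, a T-type calcium channel, fell by 1.94 on the log2 scale (q = 0.00192). The store-release channels *Itpr1* (0.73, q = 0.0125) and *Ryr2* (0.84, q = 0.0164) rose. In FD mice *Ryr3* (−3.79, q = 3.15e-09), *Cacna1i* (−2.44, q = 5.95e-05) and *Ryr2* (−1.01, q = 0.00152), of which both *Ryr* genes encode ryanodine receptors, were lower in AGRP than in POMC neurons. In fed mice *Ryr3* (−2.35, q = 3.36e-05) and *Ryr2* (−1.51, q = 5.68e-05) were lower and *Cacna1d* higher (1.28, q = 0.00171). *Cacna1i* was the 1 gene of the list whose response differed between cell types (−2.57, q = 0.00676), beside 6.71% of all genes. In POMC neurons 0 genes of the 4 lists passed for deprivation, where 62 of all genes did in edgeR and 378 in DESeq2.

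The patterns of the subunits over the 21 libraries were also compared with those of 8202 genes of at least moderate expression, by Pearson's r of log2 CPM, as a description in which group differences and library quality are shared by all points. Genes with patterns like that of *Kcnn3* included *St6galnac6* (0.860) and *Hsd17b10* (0.859). *Kcnmb4* was most like *Nfil3* (0.924), *Prkcsh* (0.892) and *Prmt2* (0.891), and *Kcnn2* most like *Maob* (0.912), *Gm5607* (0.908) and *Mrap2* (0.907). For *Kcnma1* these were *Vps13b* (0.819), *Dennd4a* (0.765) and *5330434G04Rik* (0.752). For *Kcnj11* they were *Pde6d* (0.825), *Slc25a12* (0.824) and *Rnf152* (0.793), and for *Abcc8* *Mzt1* (0.773), *Cdkl3* (0.710) and *Rasl10b* (0.701). The closest genes to the low *Kcnn1* were *Pitrm1* (0.647), *Mpp2* (0.638) and *Cxxc1* (0.615), and to the low *Abcc9* *Adss* (0.649), *Sema3e* (0.625) and *Rnf157* (0.613). Among the subunits themselves, *Kcnn2* and *Kcnn3* had r = 0.579, *Kcnn2* and *Kcnmb4* −0.566, *Kcnn3* and *Kcnmb4* −0.482, and the KATP pair *Kcnj11* and *Abcc8* 0.010.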

How the data were processed

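RNA of hand-sorted neurons was amplified with the Ovation RNA-Seq System V2 without molecular identifiers, so counting limits cover counting error only. The authors trimmed reads (cutadapt 1.7.1), removed abundant sequences (Bowtie2 2.1.0), mapped to mm10 with STAR 2.4.0i and assigned reads to Gencode VM4 genes without strand (HTSeq 0.6.1p1). They deposited raw counts per gene and TPM, made by the authors from counts and summed exon length. Entries with no gene (24.2% to 52.1% of a library had no feature) and 92 ERCC spike-ins were left out. Reads that fitted several genes had been entered as ambiguous (0.951% to 1.57% of a library) and were also left out.

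Counts were tested with edgeR 4.0.16 (R 4.3.3) by quasi-likelihood F tests, two-sided, with TMM scaling, genes above 1 CPM in at least 3 libraries, and 1 fit of 4 groups, adjusted by Benjamini-Hochberg over 16513 genes (q). Fold changes, SE and 95% CI come from this fit. Normalized CPM uses TMM library sizes, and log2 CPM a prior count of 2. Within-set ratios are of mean normalized CPM with 0.5 added to each mean, which shrinks the ratios of low values. Alternatives were limma-voom (limma 3.58.1), DESeq2 1.42.0, RLE and spike-in scaling, no count filter, covariates, blocks, the 2 groups alone and leaving out each library. The fit was tested on simulated data. Deposited locus starts were raised by 1 to be 1-based. Members and gene lists were chosen with earlier results of these data known. All 10 members are reported, the 8 tested ones with their comparisons, of which *Kcnn1* and *Abcc9* are given mainly by their smallest q. Also reported are up to 3 called genes by smallest q per list and comparison, and the 3 genes of highest r per tested member, among genes with a mean above 20 CPM in a group. A result under this rule is not reported here.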

Additional observations from a re-analysis of the deposited data

Results flagged for a closer look

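Among 36 pairs of gene and group, 11 held a library that lay apart from the rest of its group by Dixon's test, and values here are normalized CPM. The test flags about 1 of 20 by chance only where values are normally distributed. Untransformed CPM with counts of 0 need not be, so the 11 cannot be set against that rate. For *Kcnn3*, AGRP FD replicate 3 stood at 39.2, where the next library had 14.6. For *Kcnmb4*, AGRP FD replicate 2 stood at 27.4 (next 13.7) and POMC FD replicate 1 at 0.0533 (next 2.71). For *Kcnj11*, POMC FD replicate 5 stood at 19.1 (next 4.70), and for *Abcc8*, POMC FD replicate 1 at 33.2 (next 19.6). For *Kcnma1*, AGRP fed replicate 3 stood at 120.1 (next 87.0), and for *Kcnn1*, AGRP FD replicate 1 at 2.94 (next 0.921). For *Kcnj8* the library apart was POMC fed replicate 5 at 12.5, AGRP FD replicate 5 at 1.47, AGRP fed replicate 5 at 0.857 and POMC FD replicate 2 at 0.191, the last resting on 4 counts. In AGRP FD replicate 3, where *Kcnn3* was high, *Kcnmb4* (16.1 TPM) lay above all AGRP fed libraries.

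The response of *Kcnmb4* to deprivation differed between AGRP and POMC neurons by 3.88 on the log2 scale in a test of the difference itself (q = 0.0261).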

How the results depend on the processing

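Outside the fits that left out 1 library, 319 of 352 single-gene values kept their direction and side of the threshold. With the same sign, 8 lost a call and 5 gained one, and 20 changed sign. Among the sign changes, *Kcnn3* in FD AGRP against POMC also lost its call under spike-in scaling (q = 0.7645). Most of the 352 belonged to results not called in the main fit, which had no call to lose. *Kcnn2* and *Kcnn3* in FD AGRP against POMC and *Kcnmb4* and *Kcnn3* in AGRP FD against fed kept their calls under limma-voom, DESeq2, RLE scaling and no count filter. The cause of the changes below was not tested.

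The number of subunits called in AGRP FD against fed was 3 with DESeq2, where *Kcnn2* was added. It was 0 with spike-in scaling, 1 with sorted cells as a covariate, 1 with the 2 groups alone, and 0 to 2 when 1 library was left out. In POMC FD against fed it was 1 with DESeq2, and in fed AGRP against POMC 1 with DESeq2. In FD AGRP against POMC it was 0 with spike-in scaling and 2 to 3 without 1 library. In the interaction it was 2 with limma-voom, 0 with spike-in scaling and 0 to 2 without 1 library. Calls over all genes moved by over 1.5 times to 378 (DESeq2), 13 (spike-in scaling) and 40 to 111 (without 1 library) in POMC FD against fed, and under spike-in scaling to 97 in AGRP FD against fed, 297 in fed AGRP against POMC, 1117 in FD AGRP against POMC and 119 in the interaction.

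Spike-in scaling moved the median log2 value of all genes to −1.11 in POMC FD against fed, 1.10 in FD AGRP against POMC and 1.04 in the interaction, and limma-voom to −0.13 in AGRP FD against fed. Spike-in scaling changed the sign of *Kcnj11* (0.038) and *Abcc9* (1.32) in AGRP FD against fed, of *Kcnn1* (−0.67), *Kcnn2* (−0.48) and *Abcc8* (−0.71) in POMC FD against fed, of *Kcnn3* (0.36), *Kcnj11* (1.58), *Abcc8* (0.43) and *Abcc9* (0.28) in FD AGRP against POMC, and of *Kcnn1* (0.32), *Kcnn3* (0.55) and *Abcc8* (0.18) in the interaction. With sorted cells as a covariate, *Kcnn1* became 0.41 in AGRP FD against fed and 0.053 in the interaction, and *Abcc9* −0.69 in the interaction. With the spike-in set as a block, *Abcc9* became 0.37 in AGRP FD against fed and *Kcnn3* 0.20 in POMC FD against fed.

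Replicate numbers repeat across groups but name different mice, and deviations of same-numbered libraries from their group means correlated at −0.168 to 0.106, so the numbers do not pair them. At most 1 of 5 libraries was most like its own number in another group. With the replicate block 1 subunit, *Kcnj11* (log2 3.47, q = 0.0387), was called in fed AGRP against POMC, and *Kcnn1* (0.39) and *Kcnj11* (0.32) in AGRP FD against fed and *Kcnj11* (0.039) in FD AGRP against POMC changed sign.

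Leaving out 1 library gave values on both sides of 0 for *Kcnn1* (−1.58 to 0.35), *Kcnj11* (−0.62 to 0.33), *Abcc9* (−0.42 to 0.56) and *Kcnma1* (−0.0042 to 0.24) in AGRP FD against fed, for *Kcnn1* (−0.24 to 1.15), *Abcc9* (−0.91 to 0.22) and *Kcnma1* (−0.16 to 0.074) in POMC FD against fed, for *Kcnma1* in fed (−0.20 to 0.076) and FD (−0.0030 to 0.21) and *Kcnj11* in FD (−1.07 to 0.48) AGRP against POMC, and for *Kcnn1* (−1.91 to 0.020) and *Abcc9* (−0.33 to 0.81) in the interaction. *Kcnn1*, *Kcnn4*, *Kcnj8* and *Abcc9* had 3 counts or fewer in 11, 21, 15 and 5 of 21 libraries, and the part of depth in this was not tested. Of the 3 genes most like a subunit, Spearman's rho kept 0 for *Kcnn1*, *Kcnn2*, *Kcnmb4*, *Abcc8* and *Abcc9* and 1 for *Kcnn3* and *Kcnma1*.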
